A study of Mus musculus with 6 samples.

Results

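*Csf1*, *Il34*, *Csf1r*, *Csf2ra*, *Csf2rb* and *Csf3r* encode growth signals of the myeloid lineage, and they were taken by gene symbol from a table of 17092 genes. All 6 genes were found, 2 of them ligands (*Csf1* and *Il34*) and 4 of them receptors (*Csf1r*, *Csf2ra*, *Csf2rb* and *Csf3r*). RNA-seq was run on fibroblasts cultured from mouse embryos (MEFs) of wild-type (WT) mice and of *Aff3ir-ORF2-/-* mice, with 3 libraries of each genotype. The *Aff3ir-ORF2-/-* mice were made by injecting Cas9 mRNA and guide RNAs against the nested *Aff3ir-ORF2* locus into fertilized eggs. Heterozygous offspring were bred to give the homozygous line. The labels give no age, sex, passage or flow condition for the sequenced cells, and they do not say whether the libraries of a genotype came from separate embryos or cultures, so the p-values measure the spread between these libraries only.

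CSF1 is a secreted and membrane-bound growth factor that fibroblasts and other stromal cells make, and on which most tissue macrophages depend for survival and division. Its receptor, the tyrosine kinase encoded by *Csf1r*, is a defining protein of monocytes and macrophages, and *Il34*, best known from skin epithelium and neurons, encodes a second ligand of the same receptor. *Csf2ra* and *Csf2rb* encode the binding chain and the signalling chain of the GM-CSF receptor, the latter shared with the receptors of other cytokines, and *Csf3r* encodes the G-CSF receptor of neutrophils and their precursors.

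With all libraries, the differences of the ligand RNAs between the genotypes were within the replicate error, while the receptor RNAs were higher in *Aff3ir-ORF2-/-* MEFs. By the quasi-likelihood test of edgeR, which also gave all adjusted p values here unless another tool is named, *Csf1r* was 19.9-fold, *Csf2rb* 12.5-fold and *Csf2ra* 2.39-fold higher, and *Csf3r* rose from 0 counts in each WT library to a few counts. A gene was called when its Benjamini-Hochberg adjusted p was under 0.05 and its change at least 1.5-fold. Of the 13075 genes that had enough counts to be tested, 14.2% were called higher and 7.27% lower in *Aff3ir-ORF2-/-* MEFs. Of the ligands, 0 of 2 were called (by DESeq2's Wald test also 0, with adjusted p values of 0.287 for *Csf1* and 0.645 for *Il34*, and 0 of 2 at an unadjusted p under 0.05). Of the receptors, 3 of the 3 that were tested were called higher. The fourth, *Csf3r*, had too few counts to pass the filter. The 6 genes are too few for their share to be read as a property of a group, so each is described by its own values. No overlap of the libraries of both genotypes, seen in 4 of the 4 receptors, the untested *Csf3r* included (each higher in all *Aff3ir-ORF2-/-* libraries), and 0 of the 2 ligands, was found for 66% of tested genes, with 33.3% higher and 32.7% lower in every *Aff3ir-ORF2-/-* library.

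**Figure D1:**
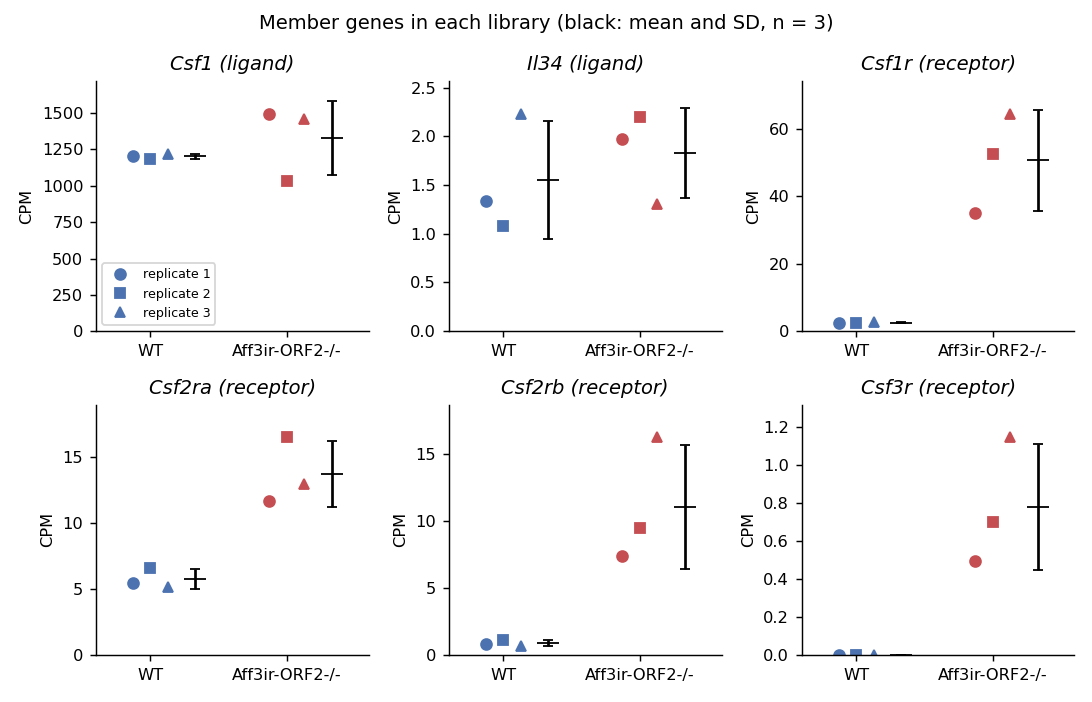
CPM of the 6 genes (vertical axes, from 0) in the 3 WT libraries (blue) and the 3 *Aff3ir-ORF2-/-* libraries (red), with marker shapes for replicates 1, 2 and 3 and the mean and SD in black. The genotypes overlap for both ligands, and the lowest *Aff3ir-ORF2-/-* library exceeds the highest WT library for each receptor.

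The total count of a library was between 17435133 and 18252330, and a single count was worth between 0.0537 and 0.0580 CPM (counts per 1e6 tested counts) after scaling by edgeR's TMM factors. *Aff3ir* itself was not analysed here, and the labels could not be checked against the deleted transcript. The parent gene *Aff3* was counted 186 to 229 times in *Aff3ir-ORF2-/-* and 406 to 418 times in WT libraries. The summed CPM of 11 fibroblast markers was 28807 in *Aff3ir-ORF2-/-* replicate 2 against 23465 and 21788 in replicates 1 and 3, and 25796 to 25930 in WT. The defining fibroblast genes *Col1a1* and *Fn1* were among the most abundant RNAs of both genotypes, at means of 7366 and 8871 CPM in WT and 5246 and 12078 CPM in *Aff3ir-ORF2-/-* MEFs.

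*Csf1* (gene ID 12977) was among the most abundant RNAs of these cells, with a higher WT mean than 99.6% of all genes in the table. It was counted 20723, 20837 and 21292 times in the successive WT replicates, against 27248, 19273 and 26743 times in the successive *Aff3ir-ORF2-/-* replicates. In CPM this was 1202, 1185 and 1219 in WT against 1496, 1034 and 1457 in the *Aff3ir-ORF2-/-* replicates, in order, a mean of 1202 ± 16.7 against 1329 ± 256 (SD, n = 3 each). Thus *Aff3ir-ORF2-/-* replicates 1 and 3 lay above all WT libraries and replicate 2 lay below them, and the genotypes overlapped. The log2 fold change was 0.15 (SE 0.14, 95% interval -0.18 to 0.47, edgeR adjusted p = 0.394), which on the linear scale leaves room for anything from 0.884-fold to 1.38-fold. This result depends on a single library. Without *Aff3ir-ORF2-/-* replicate 2 the log2 fold change was 0.29 and the adjusted p was 3.92e-07, still under the fold change needed for a call.

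The 250 bases before the RefSeq start of *Csf1* are shown because its RNA was far more abundant than that of any other member. They were read from RefSeq's promoter table of GRCm38.p6, chr3:107760470-107760719, minus strand, and run 5′ to 3′ up to the base before the start. Capitals mark the letters that match a κB-like motif, GGGA then any 3 bases then TCC, searched on both strands. The match runs from base -155 to base -145, where a hit on each strand overlaps the other. Of the 32851 promoters in the table, 3.86% hold such letters in the same window. No hit of GAGGAA, the core letters bound by PU.1, a transcription factor of myeloid cells, was found in this window on either strand.
Csf1 promoter: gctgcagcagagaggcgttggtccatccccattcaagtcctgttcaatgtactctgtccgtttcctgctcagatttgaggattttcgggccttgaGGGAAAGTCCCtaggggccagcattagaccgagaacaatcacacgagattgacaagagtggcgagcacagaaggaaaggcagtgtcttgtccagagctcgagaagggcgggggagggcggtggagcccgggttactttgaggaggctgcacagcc

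*Il34* (gene ID 76527), the second ligand of the CSF1 receptor, was a rare RNA. Its counts were 23, 19 and 39 in the successive WT replicates, against 36, 41 and 24 in the successive *Aff3ir-ORF2-/-* replicates. The highest CPM was in WT replicate 3 and the lowest in WT replicate 2, so the *Aff3ir-ORF2-/-* libraries lay inside the WT range. The mean was 1.55 ± 0.605 CPM in WT and 1.83 ± 0.464 CPM in *Aff3ir-ORF2-/-* MEFs (SD, n = 3 each). The log2 fold change was 0.24 (SE 0.31, 95% interval -0.46 to 0.94, edgeR adjusted p = 0.537), an interval of 0.726-fold to 1.92-fold on the linear scale. Of the other cell surface proteins known to bind the *Il34* product, *Ptprz1* was higher (log2 fold change 0.50, adjusted p = 0.00324) but under 1.5-fold, though called without *Aff3ir-ORF2-/-* replicate 3 (0.62), and *Sdc1* was at 175 ± 4.52 CPM in WT and 173 ± 5.31 CPM in *Aff3ir-ORF2-/-* MEFs (SD, n = 3 each; adjusted p = 0.751).

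*Csf1r* (gene ID 12978) showed the largest change among the tested members. It was counted 43, 42 and 48 times in the successive WT replicates, against 637, 979 and 1185 times in the successive *Aff3ir-ORF2-/-* replicates. The WT libraries were thus close to each other and above the detection floor of 3 counts, and the lowest *Aff3ir-ORF2-/-* library was far above the highest WT library. In CPM, *Csf1r* rose from 2.54 ± 0.184 to 50.7 ± 14.9 (SD, n = 3 each), or by a log2 fold change of 4.31 (SE 0.31, edgeR adjusted p = 9.55e-05). Of all tested genes, 98.6% had a lower log2 fold change. *Pdgfrb*, the PDGF receptor gene next to *Csf1r* in RefSeq's gene order and a well-known receptor of fibroblasts and pericytes, went from 247 ± 4.93 to 371 ± 40.2 CPM (SD, n = 3 each). Its log2 fold change of 0.59 lay at the fold change threshold, and its call was lost without WT replicate 2 (0.58), WT replicate 3 (0.57) or *Aff3ir-ORF2-/-* replicate 2 (0.49), with no filter (0.57), in limma (0.58) and with the replicate block (0.58).

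*Csf2ra* (gene ID 12982), the binding chain of the GM-CSF receptor, was the receptor with the most RNA in WT MEFs. Its counts were 94, 116 and 90 in the successive WT replicates, against 212, 307 and 238 in the successive *Aff3ir-ORF2-/-* replicates. Every *Aff3ir-ORF2-/-* library was higher than every WT library, and replicate 2, not replicate 3 as for the other receptors, was the highest. The mean rose from 5.73 ± 0.764 to 13.7 ± 2.50 CPM (SD, n = 3 each), or by a log2 fold change of 1.26 (SE 0.15, edgeR adjusted p = 0.000117).

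*Csf2rb* (gene ID 12983), the shared signalling chain, was counted 14, 20 and 12 times in the successive WT replicates, against 135, 177 and 298 times in the successive *Aff3ir-ORF2-/-* replicates. The *Aff3ir-ORF2-/-* libraries spread more than 2-fold among themselves and all lay far above WT. The mean rose from 0.879 ± 0.233 to 11.1 ± 4.61 CPM (SD, n = 3 each), or by a log2 fold change of 3.64 (SE 0.40, edgeR adjusted p = 0.000237). The mouse genome holds a near-identical neighbour, *Csf2rb2*, which encodes a chain of the mouse interleukin-3 receptor, and the deposited counts of the pair were in part not whole numbers, as arises when reads are split between similar genes. *Csf2rb2* was counted 9, 3 and 3 times in WT against 81, 127 and 248 times in the *Aff3ir-ORF2-/-* replicates, in order. The split between them is therefore uncertain. The sum of both genes was 23, 23 and 15 counts in WT against 216, 304 and 546 counts in the *Aff3ir-ORF2-/-* replicates, in order, with a log2 fold change of 4.04 (SE 0.50, edgeR adjusted p = 0.00108). Summing was chosen after the values had been seen.

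*Csf3r* (gene ID 12986), the G-CSF receptor, had a count of 0 in each WT library, against 9, 13 and 21 in the successive *Aff3ir-ORF2-/-* replicates. A count of 0 allows up to 3 counts a library, or 0.171 to 0.174 CPM in WT. The *Aff3ir-ORF2-/-* mean was 0.779 ± 0.333 CPM (SD, n = 3), at least 4.52-fold higher than that floor. *Csf3r* had too few counts for the test as set, and when no filter was used its adjusted p was 0.00018 over 17065 genes by edgeR. Its level stayed under that of the other receptors in every library.

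Short stretches from RefSeq's promoter table of GRCm38.p6 are shown for *Csf2ra* and *Csf3r*, the receptors among the members that are in that table, because both hold the PU.1 core letters GAGGAA, given in capitals. The first is chr19:61228419-61228448, minus strand, the last 30 bases before the start of *Csf2ra*. The second is chr4:126024561-126024590, plus strand, from base -98 to base -69 of *Csf3r*.
Csf2ra: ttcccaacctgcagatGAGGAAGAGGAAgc
Csf3r: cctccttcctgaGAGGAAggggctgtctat
The letters occur back to back at *Csf2ra*, from base -14 to base -3, and at *Csf3r* from base -86 to base -81. The *Csf3r* promoter also holds the κB-like letters described for *Csf1*, from base -129 to base -120. GAGGAA is a short motif, found on either strand in the 250 bases before the start of 23.3% of all promoters in the table, so these matches describe the sequences and do not show a bound site.

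Levels of different genes were compared per kilobase of the longest GENCODE M21 transcript. In WT MEFs, *Csf1* stood at 288 ± 4.01 CPM per kb, *Csf2ra* at 2.52 ± 0.335, *Il34* at 0.862 ± 0.337, *Csf1r* at 0.541 ± 0.0392, *Csf2rb* at 0.179 ± 0.0475 and *Csf3r* at 0 (SD, n = 3 each). The ranges over libraries of *Il34* and *Csf1r* were 0.602 to 1.24 and 0.508 to 0.584 CPM per kb, so these neighbours did not overlap, but their means differed by less than 1 SD of *Il34*. In *Aff3ir-ORF2-/-* MEFs the order was *Csf1* at 318 ± 61.3 CPM per kb, *Csf1r* at 10.8 ± 3.17, *Csf2ra* at 6.01 ± 1.10, *Csf2rb* at 2.26 ± 0.941, *Il34* at 1.02 ± 0.259 and *Csf3r* at 0.224 ± 0.0955 (SD, n = 3 each). *Csf1r* passed *Csf2ra* in each *Aff3ir-ORF2-/-* library, although in replicate 1 only by 7.44 against 5.11 CPM per kb. Even so, *Csf1* remained by far the most abundant. For every *Csf1r* read there were 482, 496 and 444 *Csf1* reads in the successive WT replicates, against 42.8, 19.7 and 22.6 in the successive *Aff3ir-ORF2-/-* replicates.

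**Figure D2:**
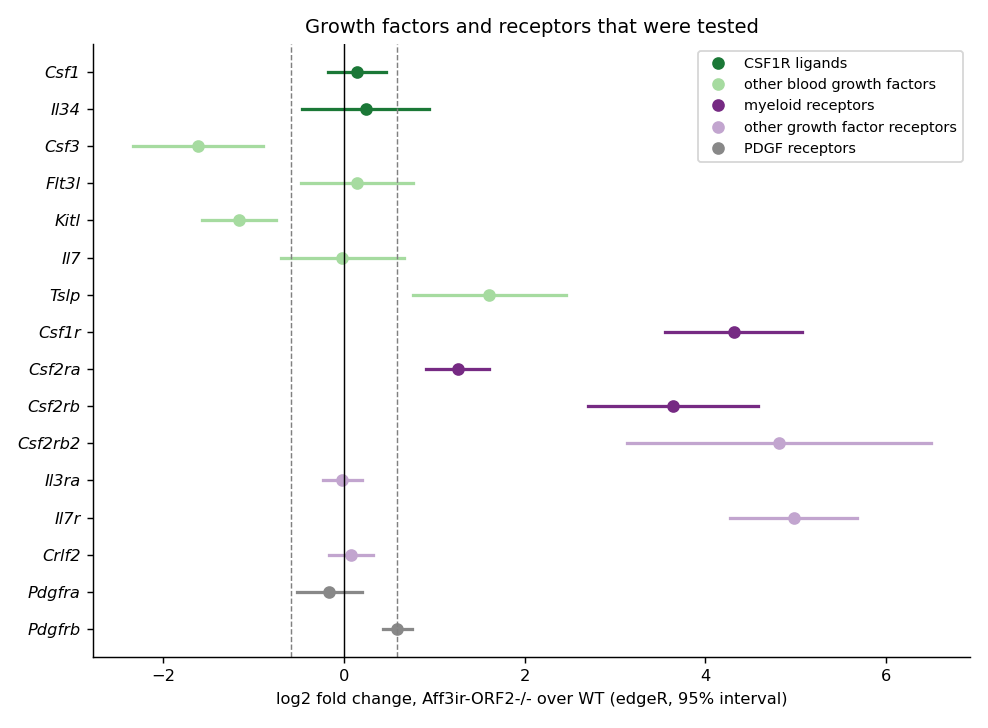
Log2 fold change of *Aff3ir-ORF2-/-* over WT (horizontal axis) with its 95% interval from edgeR for every tested growth factor and receptor, coloured by group, with dashed lines at a 1.5-fold change. The intervals of *Csf1* and *Il34* cross 0, while those of *Csf1r*, *Csf2ra* and *Csf2rb* lie between 0.91 and 5.07.

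Macrophage markers moved with the receptors. All 18 listed macrophage markers were in the table, and 17 were tested and called higher, where *C1qa* and *C1qb* lost the call without *Aff3ir-ORF2-/-* replicate 2 (adjusted p of 0.0955 and 0.126). The median log2 fold change was 6.66, against 0.0056 over all tested genes. With lower bounds in place of the fitted values for the 4 tested markers at the WT floor, the median stayed at 6.66. Markers near 0 in WT passed the filter only through the *Aff3ir-ORF2-/-* libraries and could hardly have been called lower. The summed CPM of the list was 22.4 to 25.8 in WT against 1399, 1938 and 2394 in the *Aff3ir-ORF2-/-* replicates, in order. Most of the *Aff3ir-ORF2-/-* sum was a single gene, *Lyz2*, at 795, 1086 and 1373 CPM in the successive replicates. In WT, 3 of the 18 markers (*C1qa*, *C1qb* and *Aif1*) had 0 counts in every library, and the common leukocyte gene *Ptprc* was counted 2, 11 and 8 times. *Csf1r*, *Csf2rb* and *Csf3r* ranked the *Aff3ir-ORF2-/-* libraries in the same order as the marker sum, replicate 3 above replicate 2 above replicate 1. Not every marker kept this order, and *Adgre1* and *C1qa* were among those highest in replicate 2. *Csf1r* amounted to 2.50%, 2.71% and 2.70% of the marker sum in *Aff3ir-ORF2-/-* replicates 1, 2 and 3, but to 9.27% to 11.9% of it in WT. *Csf2ra* amounted to 0.542% to 0.850% of the marker sum in *Aff3ir-ORF2-/-* and to 22.2% to 25.6% in WT libraries. The part of macrophage RNA in the receptor results was not tested, and in bulk RNA more cells of a type and more RNA per cell cannot be told apart.

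**Figure D3:**
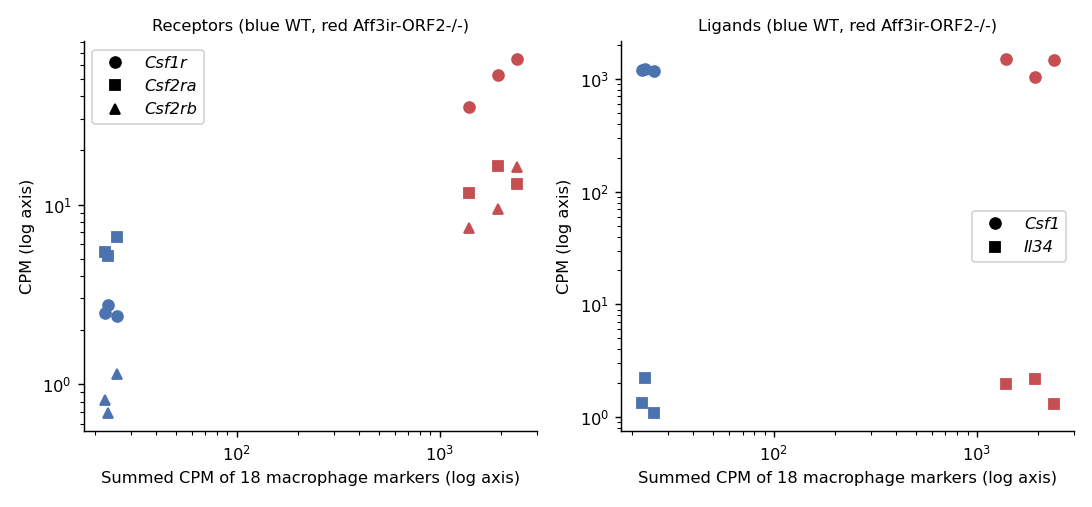
CPM of the receptors *Csf1r*, *Csf2ra* and *Csf2rb* (left) and of the ligands *Csf1* and *Il34* (right) against the summed CPM of 18 macrophage markers, on log axes, for the 3 WT (blue) and 3 *Aff3ir-ORF2-/-* (red) libraries. The red libraries lie at marker sums of 1399 to 2394 against 22.4 to 25.8 for the blue ones, with higher receptor values, while the values of both ligands overlap.

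Markers of other blood cells were scarce. Of 12 neutrophil markers, 7 were in the table and 3 were tested, and *Fpr1*, *Mmp8* and *S100a8* were all called higher, but the list summed to 0.739 to 1.33 CPM in WT and 3.70 to 7.47 CPM in *Aff3ir-ORF2-/-* libraries. These 3 genes had at most 6 counts in a WT library and passed the filter only through the *Aff3ir-ORF2-/-* libraries. Their common direction was thus largely set by the filter. *Ly6g* and *Ngp*, which define neutrophils, had at most 1 count in any library. Of 8 dendritic cell markers, 5 were in the table and 2 were tested, both called higher (*Cd83*, at least 11.0-fold, and *Zbtb46*, at 1.51-fold, whose call was lost in 5 alternatives, among them those without WT replicate 2, *Aff3ir-ORF2-/-* replicate 2 or *Aff3ir-ORF2-/-* replicate 3). *Cd83* had 0 counts in each WT library, so it too was tested only through the *Aff3ir-ORF2-/-* libraries. None of the lymphocyte or of the mast cell and granulocyte markers had enough counts to be tested in either genotype, and their sums were at most 0.172 and 0.494 CPM in any library.

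Other growth factors of blood cells were followed from a list of 10, of which 8 were in the table and 5 were tested. Of these 5, 2 were called lower and 1 higher, with a median log2 fold change of -0.02. *Csf3* had 7 counts in *Aff3ir-ORF2-/-* replicates 1 and 2, and *Tslp* had 7 in WT replicate 1. Each thus relied on the genotype where it was higher to pass the filter, which partly set its direction. Once genes under 10 counts in any library were left out, 1 lower call and 0 higher calls remained. The calls are therefore too few to settle whether the list had a common direction. *Kitl*, the ligand of the stem cell factor receptor, was counted 970, 1024 and 997 times in WT against 445, 362 and 599 times in the *Aff3ir-ORF2-/-* replicates, in order. It fell from 57.2 ± 1.00 to 25.5 ± 6.67 CPM (SD, n = 3 each), with a log2 fold change of -1.17 (SE 0.17, edgeR adjusted p = 0.00131). *Csf3*, the ligand of the G-CSF receptor, fell from 30, 26 and 26 counts in WT to 7, 7 and 14 in the *Aff3ir-ORF2-/-* replicates, in order, while the counts of its receptor *Csf3r* were higher. Its log2 fold change was -1.61 (SE 0.32, adjusted p = 0.00201). *Tslp*, an epithelial and stromal cytokine, rose from 7, 18 and 18 to 52, 29 and 58 counts (log2 fold change 1.61, SE 0.38, adjusted p = 0.00524). *Flt3l* (log2 fold change 0.14, 95% interval -0.48 to 0.77) and *Il7* (-0.02, 95% interval -0.70 to 0.66) did not pass, and their signs changed in some alternatives. *Csf2*, which encodes GM-CSF, the ligand of the *Csf2ra* and *Csf2rb* products, had at most 1 count in any library, and *Il5* at most 3. *Thpo* had at most 4 counts in WT and at most 7 in *Aff3ir-ORF2-/-* libraries.

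Among 9 other receptors of this kind, 8 were in the table and 4 were tested. *Csf2rb2*, described with *Csf2rb*, and *Il7r* were called higher, and 0 were called lower. Both called genes passed the filter only through the *Aff3ir-ORF2-/-* libraries. *Il7r*, a receptor chain shared by the cytokines of *Il7* and *Tslp*, rose from 8, 6 and 4 counts in WT to 146, 213 and 251 in the *Aff3ir-ORF2-/-* replicates, in order (log2 fold change 4.98, SE 0.31, edgeR adjusted p = 3.19e-06). Its partner for TSLP, *Crlf2*, was at 8.83 ± 0.0881 CPM in WT and 9.33 ± 1.04 CPM in *Aff3ir-ORF2-/-* MEFs (SD, n = 3 each), and the 95% interval of its log2 fold change ran from -0.16 to 0.32. *Il3ra*, which pairs with the *Csf2rb* and *Csf2rb2* products, was at 12.1 CPM in WT and 11.9 CPM in *Aff3ir-ORF2-/-* MEFs (means, n = 3 each, 95% interval of the log2 fold change -0.24 to 0.20). *Kit*, *Flt3*, *Il5ra* and *Epor* had at most 5 counts in any library. Of the PDGF receptors, the tyrosine kinases most like CSF1R in fibroblasts, *Pdgfra* did not pass the test with all libraries (log2 fold change -0.17, adjusted p = 0.376), and without *Aff3ir-ORF2-/-* replicate 2 it was at -0.34 (edgeR adjusted p = 0.0136).

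The proteins that carry the CSF1R signal were followed in a pair of lists, by where they are mostly made. Of 15 listed proteins that are largely made in blood cells, 13 were tested, 11 were called higher and 0 lower, with a median log2 fold change of 3.99. The adaptor *Tyrobp*, the lipid phosphatase *Inpp5d* and the GTPase *Rac2* had log2 fold changes of 6.92, 6.47 and 6.09, and the exchange factor *Vav1* was at least 62.3-fold higher than the WT floor. All of these had at most 6 counts in a WT library and passed the filter only through the *Aff3ir-ORF2-/-* libraries. The Src family kinase *Lyn*, which WT MEFs already made at 28.7 ± 1.32 CPM (SD, n = 3), did not pass the test with all libraries (log2 fold change 0.16), and passed without *Aff3ir-ORF2-/-* replicate 1 (0.21, adjusted p = 0.0473) or replicate 2 (0.18, edgeR adjusted p = 0.0489). Of 14 widely made proteins of the same pathway, 1 was called higher and 0 lower, with a median of 0.06. That gene was *Pik3r1*, the regulatory subunit of PI3 kinase, which rose from 36.4 ± 2.37 to 76.7 ± 10.3 CPM (SD, n = 3 each, log2 fold change 1.07). Another 7 of the 14 passed the adjusted p under 1.5-fold, while 56.8% of all tested genes had an adjusted p under the threshold. The ubiquitin ligase *Cblb* (-0.57) was among these 7, and was called lower with no filter (-0.59), without WT replicate 3 (-0.60) and without *Aff3ir-ORF2-/-* replicate 1 (-0.59). The most abundant of the 14 were *Akt1* and *Ptpn11*, which did not pass with all libraries (log2 fold changes of 0.07 and 0.05) but passed the adjusted p without *Aff3ir-ORF2-/-* replicate 2 (0.13 and 0.09). These counts are descriptions beside the 14.2% of all tested genes called higher, and no test compared the lists.

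The shedding proteases that release CSF1 and its receptor from the cell surface were made by both genotypes. *Adam17* was at 80.7 ± 0.740 CPM in WT and 81.1 ± 5.46 CPM in *Aff3ir-ORF2-/-* MEFs (SD, n = 3 each), and *Adam10* was higher by less than 1.5-fold (log2 fold change 0.19). *Rhbdf2*, a partner that carries ADAM17 to the cell surface, was called higher, from 6.79 ± 0.495 to 19.3 ± 1.92 CPM (SD, n = 3 each, log2 fold change 1.51). Its relative *Rhbdf1* was at 48.8 ± 1.36 and 50.8 ± 1.94 CPM. In the JAK-STAT list, through which the GM-CSF and G-CSF receptors signal, 2 of 12 tested genes were called higher (*Socs3* and *Stat3*, log2 fold changes 0.89 and 0.63) and 2 lower (*Pim1* and *Jak2*, -1.06 and -0.62), with a median of 0.27. The shares over all tested genes were 14.2% higher and 7.27% lower, so these few calls are not read as a property of the list. *Jak2*, the kinase bound to *Csf2rb*, fell from 86.9 ± 1.21 to 56.7 ± 8.11 CPM (SD, n = 3 each), and its call was lost without *Aff3ir-ORF2-/-* replicate 3 (-0.54) and with upper quartile scaling (-0.58).

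**Figure D4:**
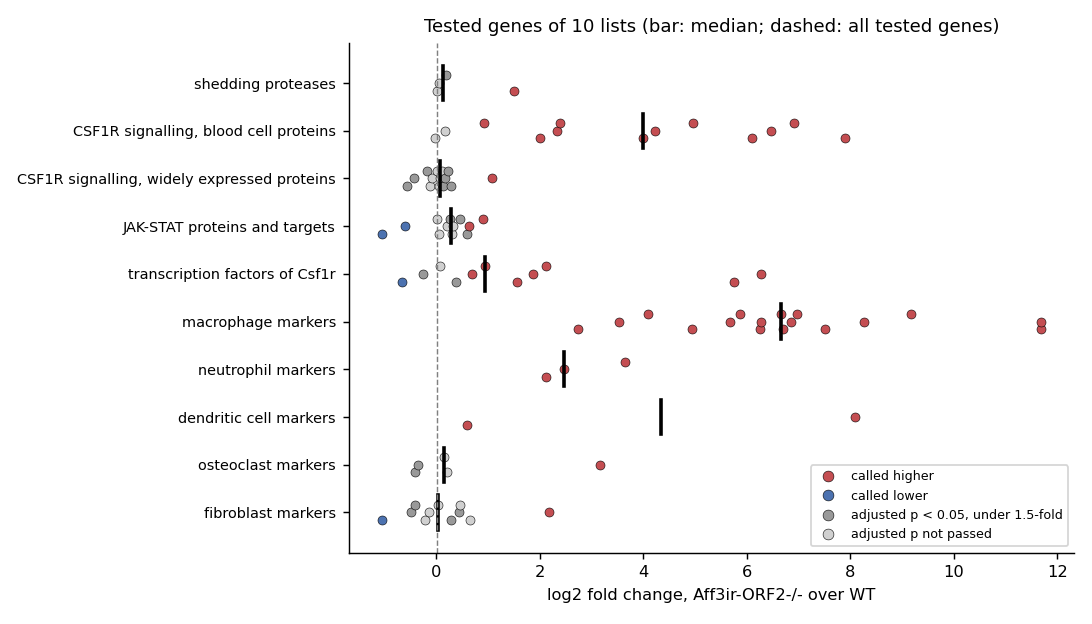
Log2 fold change of *Aff3ir-ORF2-/-* over WT (horizontal axis) for each tested gene of 10 lists, coloured by call, with the median of each list as a black bar and that of all tested genes as a dashed line. The blood cell proteins of CSF1R signalling have a median of 3.99 and the widely made ones 0.06. Most called genes of the former list passed the filter only through the *Aff3ir-ORF2-/-* libraries. The positions of markers at the floor in WT, such as *C1qa*, depend on the fit and are not bounds.

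Transcription factors that act on *Csf1r* in macrophages were also followed. All 11 were tested, with 7 called higher and 1 lower and a median log2 fold change of 0.94. Over all tested genes, 14.2% were called higher and 7.27% lower, with a median of 0.0056, and no test compared the list with them. *Spi1*, which encodes PU.1, was at 3, 1 and 2 counts in WT against 123, 165 and 231 in the *Aff3ir-ORF2-/-* replicates, in order, at least 54.6-fold higher than the WT floor. *Irf8* rose from 2, 4 and 0 to 82, 125 and 153 counts. *Spi1* and *Irf8* passed the filter only through the *Aff3ir-ORF2-/-* libraries. *Maf*, *Cebpa* and *Tfec*, which WT MEFs also made, had log2 fold changes of 2.13, 1.55 and 0.94. The call of *Mitf* (0.69) was lost when any WT library or *Aff3ir-ORF2-/-* replicate 2 or 3 was left out, with adjusted p values from 0.0531 to 0.111 in edgeR. *Cebpb* (0.37) passed the adjusted p under 1.5-fold, and *Ets2* (0.07, adjusted p = 0.654) did not pass. *Ets1* fell from a mean of 129 to 81.1 CPM (n = 3 each, log2 fold change -0.67, SE 0.080), a call that was lost without *Aff3ir-ORF2-/-* replicate 2 because the change was then under 1.5-fold. *Runx1* was lower by less than 1.5-fold, at a log2 fold change of -0.26.

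The genes whose pattern over the 6 libraries was most like that of a member were found by the root mean square difference of log2 CPM, each gene centred on its own mean, with a prior count of 2 added, among 11699 other genes whose overall abundance in edgeR (the log2 of a CPM averaged over all libraries) was 1 or more, which a gene can reach through a single genotype. For *Csf1r* these were *Nckap1l*, a blood cell regulator of actin, *Was*, the Wiskott-Aldrich syndrome protein, and *Naip2*, a sensor of bacterial proteins with close paralogs, at differences of 0.0824, 0.147 and 0.165. *Was* and *Naip2* had at most 2 and 6 counts in a WT library, so their WT values, and with them their differences and ranks, depend on the prior count. *Nckap1l* was counted 20, 21 and 27 times in WT against 356, 550 and 631 times in the *Aff3ir-ORF2-/-* replicates, in order. For *Csf1* they were *Bdnf*, a neurotrophin, *Pdlim1*, a cytoskeletal adaptor, and *Tst*, a mitochondrial sulfurtransferase, at 0.0333, 0.0391 and 0.0405. *Bdnf* had 966, 1024 and 993 counts in WT against 1344, 917 and 1301 in the *Aff3ir-ORF2-/-* replicates, in order, with the same dip in replicate 2 as *Csf1*. For *Il34* they were *Acot6*, *Gm14305* and *Acpp*, at 0.133, 0.180 and 0.180, which are less close and rest on few counts. With 6 libraries in 2 groups, many genes share such a pattern, and likeness says nothing of a shared control.

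**Figure D5:**
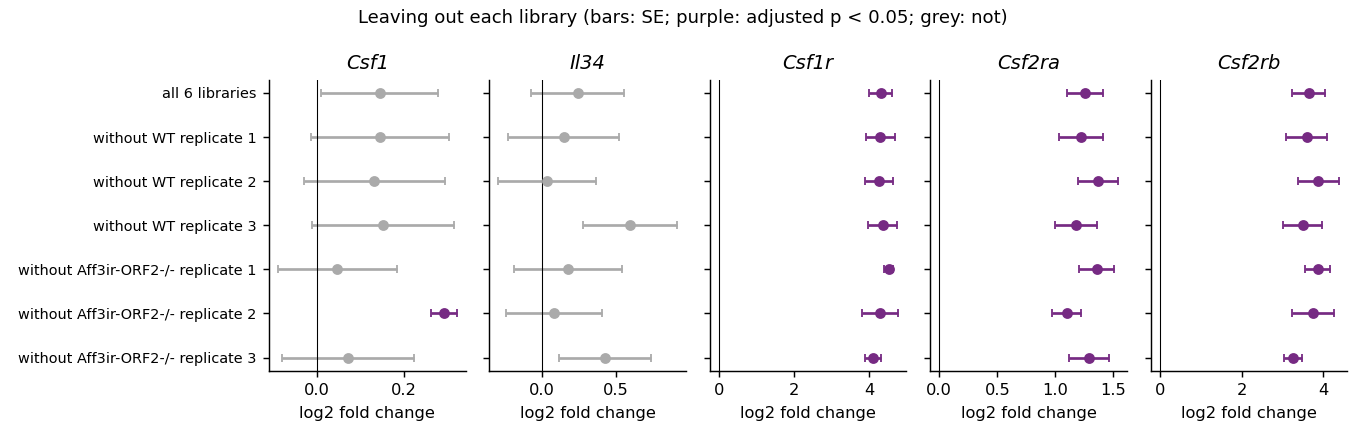
Log2 fold change of *Aff3ir-ORF2-/-* over WT with its SE for the 5 tested members (panels, each with its own axis), from all 6 libraries and with each library left out in turn, purple where the adjusted p was under 0.05. *Csf1* turns purple only without *Aff3ir-ORF2-/-* replicate 2, at 0.29, while *Csf1r* stays between 4.10 and 4.52.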

How the data were processed

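The sequencing was done by a company on a DNBSEQ instrument with paired-end reads, which the authors had filtered with SOAPnuke. The deposited table holds an estimated count for each gene and library, not normalized. The submitters' notes name the genome build mm8, and the aligner, counting tool and annotation are not given in the sources used here. The labels name Trizol and the paper's methods a kit for RNA extraction.

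Expected counts were rounded (10.6% to 11.3% of a library's values were not whole). Low genes were dropped (filterByExpr, at least 10 counts and 15 in total) and the rest compared by the robust quasi-likelihood test of edgeR 4.0.16 after TMM scaling, with Benjamini-Hochberg adjustment and no covariates, in R 4.3.3. CPM is per 1e6 counts of the tested genes, TMM-scaled. The floor of 3 counts in a library covers counting error only, and the intervals rest on the spread between replicates. DESeq2 1.42.0 and limma 3.58.1 served as alternatives. The main edgeR test, the DESeq2 test and the limma test were tried on simulated data, and the other alternatives were not. The simulation used the same spread setting for both genotypes, unlike the spread seen for *Csf1* here. The members and the 19 gene lists beside them were chosen with earlier results of these data known, and the κB letters after the *Csf1* promoter had been read. Genes were named as members, as genes of the ligand, receptor, protease and transcription factor lists, and otherwise as up to 4 calls a direction by adjusted p and the 2 most abundant genes of a list. *Lyn*, *Inpp5d*, *Rac2*, *C1qa*, *C1qb*, *Ptprc*, *Aif1*, *Ly6g*, *Ngp*, *Dcstamp*, *Calcr*, *Tnfrsf11a*, *Krt5*, *Cblb*, *Col1a2*, *Dcn* and *Tek* were chosen after their values were seen. RefSeq genes that overlap *Csf1*, *Il34*, *Csf1r*, *Csf2rb* and *Csf3r* were not in the deposited table, and whether counting used the strand is not given. RefSeq's GRCm38.p6 tables gave 17043 of 17092 gene IDs, gene order and sequences, and GENCODE M21 gave transcript lengths. Both differ from the build of the counts, so no coordinates of the counted genes are given. *Il3* and *Epo* were not analysed here, and some genes of the lists are counted but not reported by name. No label says that a replicate number is shared between genotypes, and same-numbered libraries had correlations of their deviations of 0.0386, 0.0424 and 0.0145 over genes, all under 0.1, so the numbers were not used as pairs.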

Additional observations from a re-analysis of the deposited data

How the results depend on the processing

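Over the alternatives, the calls of *Csf1r*, *Csf2ra* and *Csf2rb* held and *Il34* did not pass. With the replicate number as a block, the log2 fold changes were 0.13 for *Csf1*, 0.25 for *Il34*, 4.30 for *Csf1r*, 1.25 for *Csf2ra* and 3.61 for *Csf2rb*, and the calls over all genes were 1854 higher and 954 lower, so the block changed no call of a member (among the other genes named it ended the call of *Pdgfrb*, at 0.58, and called *Tek* lower, at -1.30). Each library correlated best with its own number, a hint from the data only. With a library left out, the log2 fold change of *Csf1* ranged from 0.047 to 0.29, of *Il34* from 0.033 to 0.59, of *Csf1r* from 4.10 to 4.52, of *Csf2ra* from 1.10 to 1.37, of *Csf2rb* from 3.25 to 3.87, and the lower bound of *Csf3r* from 1.79 to 2.42. *Csf1* passed the adjusted p only without *Aff3ir-ORF2-/-* replicate 2 (3.92e-07 against 0.275 to 0.794 otherwise). Over all genes, leaving out a library gave 1780 to 1917 higher and 898 to 1030 lower calls, against 1851 and 951. Requiring 2-fold gave 1096 higher and 317 lower calls. Of the 672 counts of calls in the lists under the alternatives, 632 stayed within 1.5 times and 40 moved, 9 of them when at least 10 counts were required in every library, which leaves out genes near 0 in WT. For *Csf3r*, only other scalings and left-out libraries give a bound. It was tested in the fit without a filter, and also when any WT library or *Aff3ir-ORF2-/-* replicate 1 was left out. In each of these edgeR fits all 4 receptors were called higher. The other tests were not run on it. Depth limits *Il34* and *Csf3r*, with at most 41 and 21 counts in a library.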

Other observations

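Osteoclasts are another cell type that grows on CSF1. Of 9 osteoclast markers, 5 were tested and *Acp5* alone was called, while 14.2% of all tested genes were called higher. It went from 6, 4 and 9 counts in WT to 41, 51 and 90 in the *Aff3ir-ORF2-/-* replicates, in order (log2 fold change 3.16, edgeR adjusted p = 0.000216). *Acp5* passed the filter only through the *Aff3ir-ORF2-/-* libraries, so its direction was largely set by the filter. *Tnfrsf11a*, the RANK receptor, was lower by less than 1.5-fold (log2 fold change -0.41), and the fusion gene *Dcstamp* and the calcitonin receptor *Calcr* had at most 1 count in any library. *Ctsk* was at 150 ± 6.43 CPM in WT and 118 ± 21.7 CPM in *Aff3ir-ORF2-/-* MEFs (SD, n = 3 each). It was lower by less than 1.5-fold (log2 fold change -0.35, edgeR adjusted p = 0.0457). It did not pass when any WT library or *Aff3ir-ORF2-/-* replicate 1 or 3 was left out. Nor did it pass with upper quartile scaling, total counts only, no filter or at least 10 counts in every library (adjusted p up to 0.135 in edgeR).

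Epithelial cells and neurons, best known for *Il34*, were followed by their markers. Of 7 epithelial markers, *Krt18* alone was tested (log2 fold change 0.04), and the keratin *Krt5* had at most 3 counts in any library. Of 6 neuron markers, 3 were tested, and *Map2* and *Tubb3*, which fibroblasts also make, were called lower (log2 fold change of *Map2* -1.18). Of 7 endothelial markers, 4 were tested, with *Vwf* and *Kdr* called higher (2.24 and 1.01) and *Cdh5* lower (-0.90), a call of *Cdh5* that was lost without WT replicate 2 or 3 or *Aff3ir-ORF2-/-* replicate 1 or 2 (adjusted p of 0.0553 to 0.117 in edgeR). It was also lost in DESeq2 (adjusted p = 0.131) and limma (adjusted p = 0.0599). *Tek* did not pass with all libraries (-1.28, edgeR adjusted p = 0.0564). It was called lower in limma, with the replicate block and without *Aff3ir-ORF2-/-* replicate 1 or 2. Of 11 fibroblast markers, 1 was called higher (*Lum*, 2.17) and 1 lower (*Postn*, -1.04, adjusted p = 0.0535 without *Aff3ir-ORF2-/-* replicate 1), with a median of 0.02. Without *Aff3ir-ORF2-/-* replicate 2, *Col1a1* (-0.66) and *Col1a2* (-0.60) were also called lower, making 3, and without *Aff3ir-ORF2-/-* replicate 1 *Dcn* (0.82) was also called higher, making 2, and 0 were called lower.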
